A study of Mus musculus with 10 samples.

Results

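Dystrophin and the proteins that hold it at the muscle membrane were examined through 10 genes: Dmd, Utrn, Dag1, Sgca, Sgcb, Sgce, Sspn, Dtna, Cav3 and Aqp4. Their members were all probe sets (groups of short probes that together measure 1 transcript) that the platform annotation gives to one of these genes alone. There were 16 such probe sets of 12422 on the array outside its controls, and each of the 10 genes had at least 1. Transcript levels had been measured on 10 arrays of gastrocnemius, the large calf muscle, in male mice aged 16 weeks. The control group held 5 arrays of normal mice, and the mdx group held 5 arrays of mdx mice, with no treatment named in either. The mdx strain carries a nonsense mutation in Dmd in every cell of the body, so fibres lack full-length dystrophin from birth and the muscle has passed through degeneration and regeneration before this age. The strain background of the normal mice was not given in the sources used here. Nothing in the labels ties each array to its own animal. The p-values set each difference between the groups against the scatter of these arrays within a group, and that scatter may be technical.

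Dystrophin is a long rod that binds actin filaments under the fibre membrane at its start and dystroglycan near its end. Dystroglycan spans the membrane and grips laminin outside the fibre. The sarcoglycans and sarcospan form a subcomplex beside dystroglycan that steadies this link, and dystrobrevin and the syntrophins bind on the inner side, where they recruit signalling proteins and channels such as aquaporin-4. Without dystrophin the protein complex is largely lost from the membrane, contraction tears the fibres, and utrophin, a close relative of dystrophin, can take over part of its role.

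The promoters of 3 members that muscle fibres use and that moved in different directions below are shown, so that the measured genes can be placed in the genome. They are the 250 bases before the annotated start, read 5′ to 3′ on the gene's strand, from RefSeq on build GRCm38.p6. They lie at chrX:82948620-82948869 (plus strand) for Dmd, whose table lists another start further downstream, at chr11:94976328-94976577 (minus strand) for Sgca and at chr6:112459255-112459504 (plus strand) for Cav3. Capitals mark each E-box, the letters CANNTG that helix-loop-helix factors such as MyoD can bind, searched on both strands.
Dmd: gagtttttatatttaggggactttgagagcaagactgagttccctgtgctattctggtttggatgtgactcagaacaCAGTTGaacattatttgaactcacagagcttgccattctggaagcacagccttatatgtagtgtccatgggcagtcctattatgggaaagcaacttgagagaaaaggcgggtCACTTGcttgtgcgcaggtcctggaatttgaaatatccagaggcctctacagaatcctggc
Sgca: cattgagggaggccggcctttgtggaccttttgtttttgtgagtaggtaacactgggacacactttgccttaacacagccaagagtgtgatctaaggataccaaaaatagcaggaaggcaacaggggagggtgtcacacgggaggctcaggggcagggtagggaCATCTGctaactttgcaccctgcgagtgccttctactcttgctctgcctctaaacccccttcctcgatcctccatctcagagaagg
Cav3: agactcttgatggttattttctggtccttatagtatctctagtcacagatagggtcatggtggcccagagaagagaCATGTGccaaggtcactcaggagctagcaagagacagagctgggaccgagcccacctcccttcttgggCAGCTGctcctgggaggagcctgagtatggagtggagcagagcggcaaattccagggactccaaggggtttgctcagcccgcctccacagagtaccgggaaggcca
An E-box began 173 and 61 bases before the start of Dmd, 86 bases before that of Sgca, and 174 and 106 bases before that of Cav3. Such a match was present in 66.2% of the 32851 promoter windows of this length in the table. The Cav3 match nearer the start reads CAGCTG, which 13.0% of the windows hold. These are matches of letters, and the arrays carry no measure of binding. The table held windows for 7 of the 10 members.

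Values are intensities on a linear scale as deposited. Changes are differences of log2(intensity + 372.4), mdx minus control, and SE is their standard error in the fit. The added 372.4 is a noise level, the root mean square of all values below 0. It shrinks the change of dim probe sets. Testing required an intensity above 134.2 on at least 5 of the 10 arrays, and a probe set was called when limma's adjusted p was below 0.05. Of the 16 member probe sets 15 passed this filter, and the second probe set of Dtna did not. Of the 15, 6 were called, 2 higher and 4 lower, while 33.6% of all 7612 tested probe sets were called, 15.8% higher and 17.8% lower. The median change of the 15 was -0.20, against -0.03 for all tested probe sets. The groups did not overlap for 4 of the 15, and for 25.1% of all tested. The number of members called was thus near the share of the whole array, and the results below concern single genes.

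The array scaling bears on every direction given here. As deposited, 9 arrays shared a trimmed mean (2% off each end) of 800.7 to 800.9, and mdx replicate 1 had 723.1. How they were scaled is not given in the sources used here. When the arrays were scaled instead to 9 probe sets of the spiked hybridization controls, the median change of all probe sets moved from -0.03 to 0.35, and 96.6% of the calls were higher in mdx, against 47.1% as deposited. When they were scaled to 18 tested genes of the muscle fibre, the median change was 0.33 and 96.5% of the calls were higher. Within-group correlations over tested probe sets were 0.952 to 0.977, and those between the groups 0.885 to 0.91. The 3′ over 5′ ratio of the actin probe sets, a sign of RNA quality, was 1.13 ± 0.038 in control and 1.02 ± 0.048 in mdx (SD, n = 5, exact permutation p = 0.0159, two-sided). Its part in the results was not tested. No batch is named in the labels.

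Dmd, on the X chromosome, was lower in mdx, with the largest change of the members as deposited. With the hybridization controls or the fibre genes as the scale, both probe sets of Cav3 and that of Sgce changed by more, upward. Its intensity in control was 863, 670, 805, 1003 and 643 on replicates 1 to 5. In mdx it was 170, 211, 237, 159 and 166. Every control array lay above every mdx array, and the lowest control value was well over the highest mdx value. Control averaged 797 ± 147 and mdx 188 ± 33.7 (SD, n = 5), so that control was 4.23 times mdx. The change in log2(intensity + 372.4) was -1.05 (SE 0.10, limma adjusted p = 6.55e-06), which the added 372.4 makes smaller than the log2 of that ratio. All 5 mdx values lay under the noise level of 372.4. The geometric mean of control was 2.11 times that level, so mdx was lower than control by at least that factor. With a noise level of 156.8 taken from the median size of the negative values, all 5 mdx values lay above it, and the change was -1.46. Dmd was also called lower, at -0.72 and -0.74, under scaling to the hybridization controls and to the fibre genes, and it was the only member probe set called lower under either. Whether the fall follows from the nonsense mutation was not tested, and it is not taken here as a check of the genotype.

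**Figure D1:**
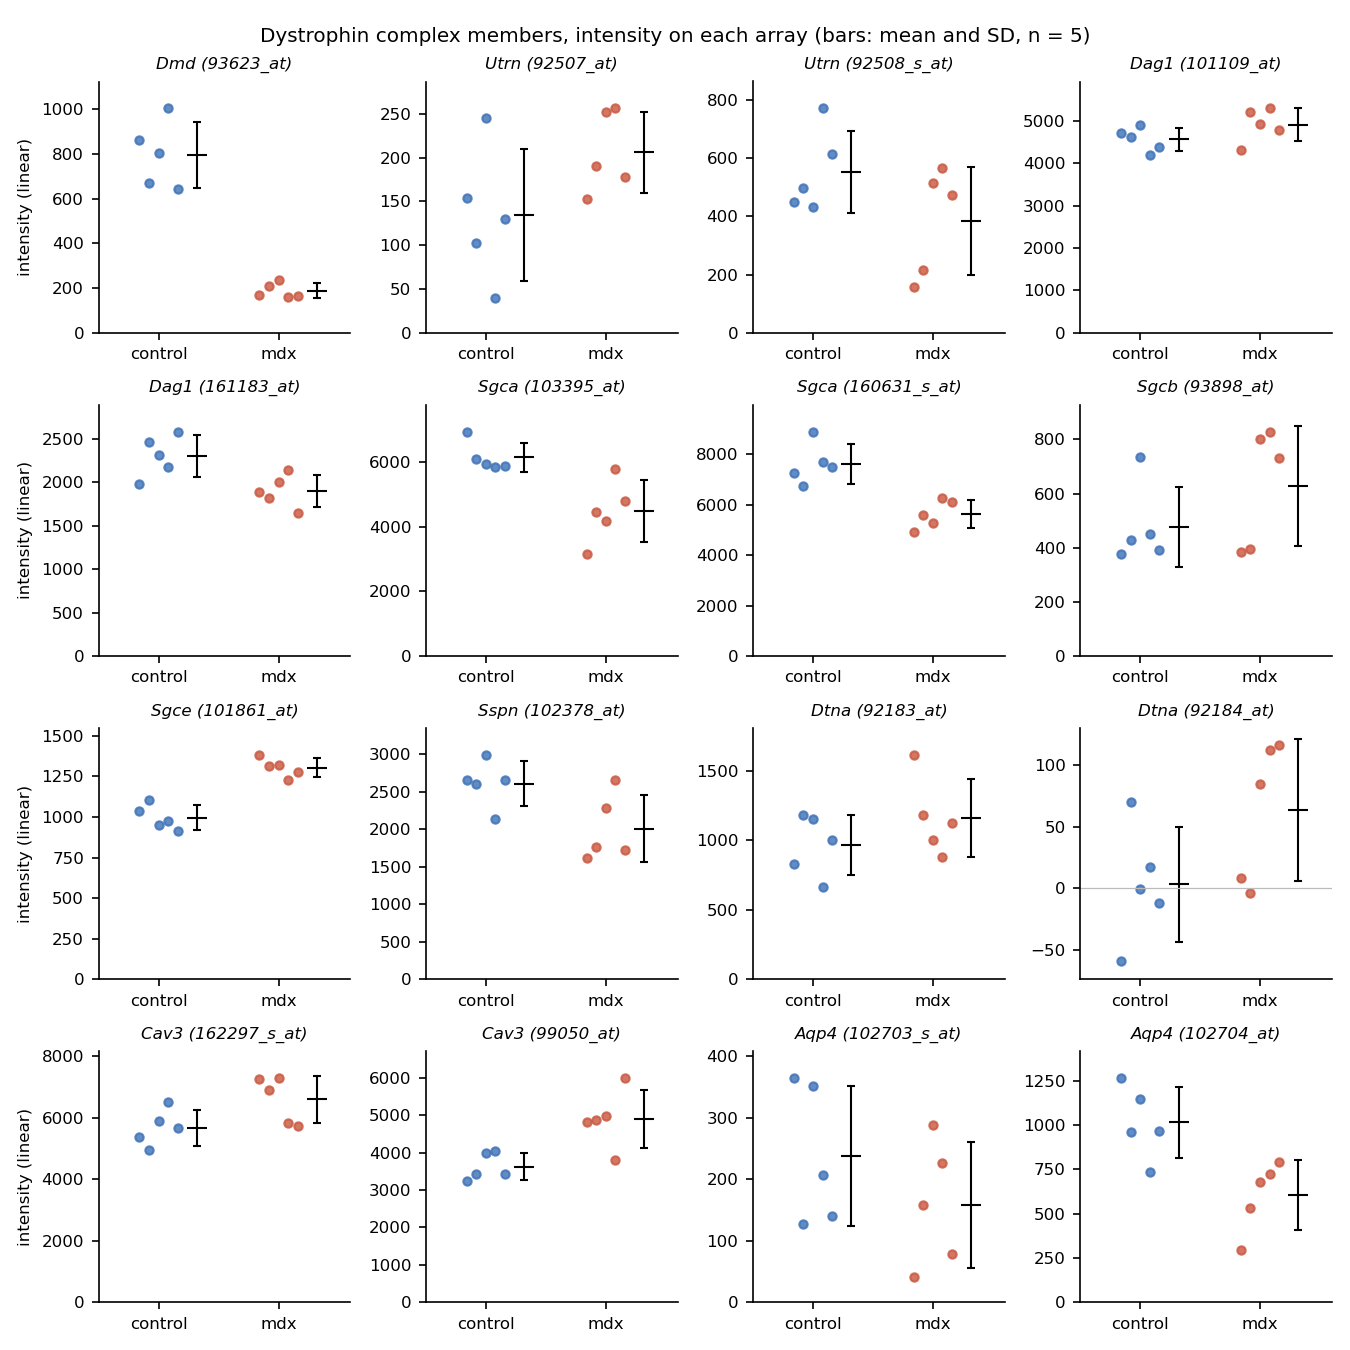
Intensity of each of the 16 member probe sets on the 5 control (blue) and 5 mdx (red) arrays, on a linear axis with its own range in each panel, points in the order of replicates 1 to 5 and bars for mean and SD. The groups are separate for Dmd, for both probe sets of Sgca and for Sgce, and overlap in the other panels.

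Utrn encodes utrophin, the relative of dystrophin that in adult muscle is kept mainly at the nerve contact and in vessels and that spreads along the membrane of regenerating fibres. It was measured by a pair of probe sets, neither of which passed the test. The brighter, a set whose name marks probes that can match more than 1 transcript, read 449, 497, 433, 772 and 614 in control. In mdx it read 157, 217, 516, 565 and 472, so that mdx replicates 1 and 2 were below all control arrays and the other 3 within their range. Its change was -0.31 (95% interval -0.69 to 0.06, limma adjusted p = 0.188). The dimmer read 39.1 to 245 in control, with a median of 130, and 153 to 256 in mdx, with a median of 190.5. All of these values lay under the noise level of 372.4, and the change was 0.20 (95% interval -0.04 to 0.44, limma adjusted p = 0.196). The changes had opposite signs and their difference was -0.51 (exact permutation p = 0.0556, two-sided, 0.139 adjusted over the 5 members with a pair). Without control replicate 3 this difference was -0.63, with an adjusted p = 0.0397 by the same exact test.

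Dag1 encodes both chains of dystroglycan, the receptor between dystrophin and laminin, and neither of its probe sets passed the test. The brighter read 4720, 4618, 4894, 4197 and 4386 in control and 4317, 5210, 4913, 5291 and 4778 in mdx. The groups overlapped over most of their range, with a change of 0.09 (95% interval -0.07 to 0.25, limma adjusted p = 0.36). After quantile normalization this probe set was called higher, at 0.21 (limma adjusted p = 0.0209). The dimmer read 1980, 2470, 2311, 2173 and 2584 in control and 1884, 1821, 2006, 2147 and 1652 in mdx. Its mdx values lay toward the low end with overlap, at a change of -0.23 (SE 0.09, limma adjusted p = 0.0554). The changes of the pair differed by 0.33 (exact permutation p = 0.0159, two-sided, 0.0794 adjusted over 5 pairs). That difference passed, at an adjusted p = 0.0397 by the exact test, after quantile normalization (0.41) and without control replicate 1 (0.39). The dimmer probe set itself was called lower without control replicate 1 and without mdx replicate 4, at limma adjusted p = 0.0277 and 0.0381, and with the stricter filter (0.0454).

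Among the sarcoglycans, Sgca was lower in mdx and Sgce higher. Sgca encodes alpha-sarcoglycan, which is made almost only in striated muscle. Its first probe set read 6942, 6095, 5955, 5855 and 5876 in control and 3147, 4455, 4175, 5795 and 4809 in mdx. The groups were separate, though the highest mdx array came close to the lowest control array. The means were 6145 ± 456 and 4476 ± 963 (SD, n = 5), with a change of -0.45 (SE 0.12, limma adjusted p = 0.0146). The second has a name that marks probes that can match several transcripts. It read 7275, 6724, 8900, 7707 and 7497 in control and 4917, 5598, 5264, 6275 and 6115 in mdx. It changed by -0.41 (SE 0.09, limma adjusted p = 0.00337), again with no overlap. The pair thus differed by 0.04 in their changes (exact permutation p = 0.825, two-sided). Both calls ended, and the sign turned, under scaling to the hybridization controls (0.15 and 0.19) and to the fibre genes (0.13 and 0.17).

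Sgce encodes epsilon-sarcoglycan, a relative of alpha-sarcoglycan found in many tissues and in smooth muscle, where it takes the place of the alpha chain. It read 1035, 1105, 950, 973 and 915 in control and 1383, 1317, 1319, 1231 and 1274 in mdx. Every mdx array was above every control array. The means were 996 ± 75.2 and 1305 ± 56.6 (SD, n = 5), with a change of 0.29 (SE 0.07, limma adjusted p = 0.00708). It was called higher under all 5 scalings, at 0.27 after quantile normalization and 0.77 with the hybridization controls. Markers of smooth muscle and pericytes had summed intensities of 15648 to 19345 in control and 15538 to 19893 in mdx. Those of endothelium ran from 8599 to 10469 and from 7484 to 9140. Both pairs of ranges overlapped, but each sum held genes that moved in opposite directions. As deposited, 2 of the 11 tested endothelial markers were called higher and 2 lower. Of the 8 tested markers of smooth muscle and pericytes 1 was called higher and 3 lower. Acta2, an actin of smooth muscle, rose from 2232 to 5710 (1.23, limma adjusted p = 4.06e-06). Des, which fibres make too, fell from 9153 to 6609 (-0.45, limma adjusted p = 0.0054). Myh11 (-0.41, limma adjusted p = 0.00908) and Mylk (-0.43, limma adjusted p = 0.03) fell as well. Summed markers of macrophages and fibroblasts were higher in mdx, as given below, and their part in the change of Sgce was not tested.

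Sgcb encodes beta-sarcoglycan, the core chain on which the subcomplex assembles. It read 376, 428, 736, 451 and 390.5 in control and 384, 393, 802, 829 and 731 in mdx. The mdx values fell into 2 low and 3 high arrays, and control replicate 3 stood with the high ones. The change was 0.22 (95% interval -0.13 to 0.58, limma adjusted p = 0.33). Sspn encodes sarcospan, the tetraspanin-like partner of the sarcoglycans. It read 2660, 2601, 2993, 2141 and 2660 in control and 1618, 1758, 2286, 2654 and 1720 in mdx. In mdx 3 arrays lay below all of control, and the change of -0.34 (SE 0.12, limma adjusted p = 0.0512) missed the threshold. It was called lower without control replicate 4, without mdx replicate 3 and without mdx replicate 4, at limma adjusted p = 0.0309, 0.0444 and 0.0106, and with the stricter filter at 0.0419.

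Dtna encodes alpha-dystrobrevin, which binds dystrophin inside the fibre and anchors syntrophins. Its first probe set read 830, 1178, 1150, 665 and 999 in control and 1612, 1177, 998, 878 and 1121 in mdx. Apart from mdx replicate 1, the mdx values lay within the control range, and the change was 0.19 (95% interval -0.12 to 0.50, limma adjusted p = 0.333). It was 0.094 without mdx replicate 1 and 0.11 without control replicate 4, uncalled in both. The second, which did not pass the filter, read -58.9 to 69.7 in control and -3.5 to 115.9 in mdx, at or near 0 on every array.

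Cav3 encodes caveolin-3, the muscle caveolin, which coats membrane pits and binds dystroglycan. Its dimmer probe set was higher in mdx. It read 3228, 3440, 3974, 4035 and 3419 in control and 4812, 4856, 4963, 3804 and 5984 in mdx, where replicate 4 alone fell within the control range. The means were 3619 ± 362 and 4884 ± 773 (SD, n = 5), with a change of 0.39 (SE 0.11, limma adjusted p = 0.0131). The brighter, whose name marks probes that can match more than 1 transcript, read 5366, 4932, 5883, 6500 and 5648 in control and 7247, 6910, 7279, 5830 and 5711 in mdx. It changed by 0.20 (95% interval -0.00082 to 0.41, limma adjusted p = 0.119) and did not pass. The changes of the pair differed by -0.18 (exact permutation p = 0.111, two-sided, 0.139 adjusted over 5 pairs). The dimmer was not called when the exact permutation test of the deposited intensities was adjusted over all tested probe sets (adjusted p = 0.0706), and the brighter was called higher after quantile normalization (0.33).

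Aqp4 encodes aquaporin-4, the water channel of fast fibres, which syntrophin holds at the membrane. Its brighter probe set was lower in mdx, at 1265, 959, 1150, 735 and 967 in control and 298, 535, 681, 724 and 794 in mdx. Control replicate 4 lay among the mdx values, and the other 4 control arrays lay above all of mdx. The means were 1015 ± 203 and 607 ± 197 (SD, n = 5), so that control was 1.67 times mdx, with a change of -0.52 (SE 0.16, limma adjusted p = 0.0213). The dimmer, whose name marks probes that can match several transcripts, read 127 to 364 in control and 41.1 to 288 in mdx. It lay under the noise level throughout and changed by -0.20 (95% interval -0.54 to 0.14, limma adjusted p = 0.352). The call of the brighter was lost under more of the alternatives run than any other of the 6 calls. Limma's adjusted p was 0.0593 with no filter, 0.055 with the replicate number as a block and 0.0516 without control replicate 1. By the exact permutation test of intensities the adjusted p was 0.0522. The change was -0.09 and -0.11, uncalled, under scaling to the hybridization controls and to the fibre genes.

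**Figure D2:**
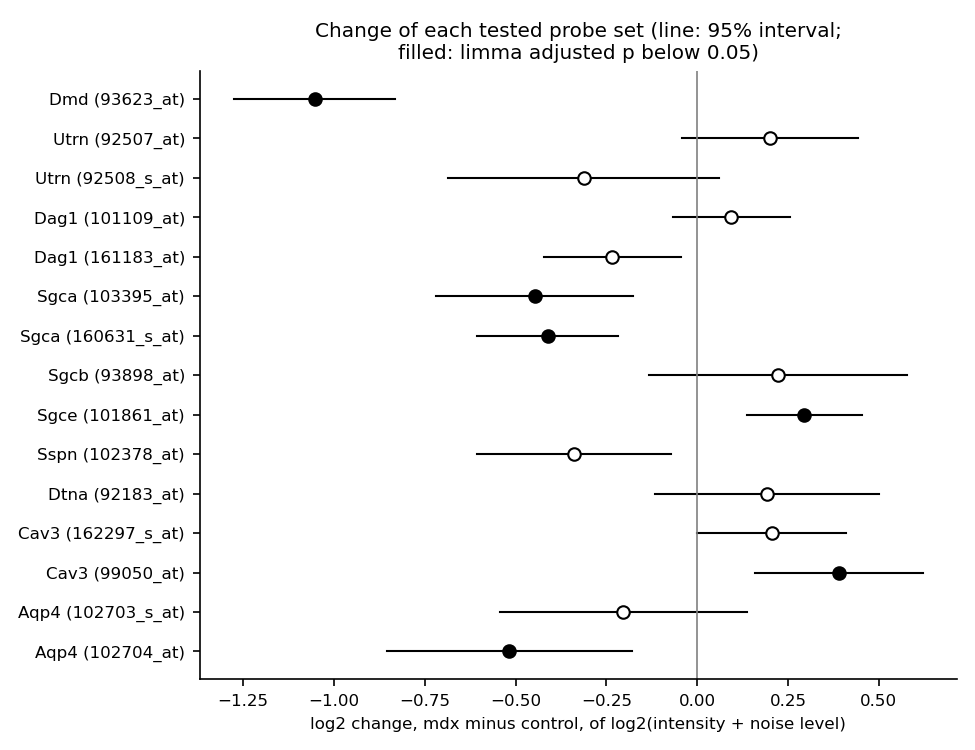
Log2 change, mdx minus control, of log2(intensity + 372.4) for the 15 tested member probe sets, with the 95% interval of the limma fit as a line and filled points for adjusted p below 0.05. Dmd stands farthest from 0 at -1.05, and the other called probe sets lie between -0.52 and 0.39.

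Scaled to genes of the muscle fibre, the members took another order. Under that scaling 3141 of all 7612 tested probe sets were called, 3032 higher and 109 lower. Of the 15 member probe sets 7 were called higher and only Dmd lower. These 7 were the dimmer probe set of Utrn (0.39), the brighter of Dag1 (0.66), Sgcb (0.58), Sgce (0.76), the tested one of Dtna (0.64), and both of Cav3 (0.78 and 0.95). The hybridization controls gave the same 7 and the same single fall, with 3527 of all 7612 tested probe sets called higher. Under both scalings the number of member probe sets called higher was thus near the share of the whole array. As deposited, 5 of the 7 member probe sets were not called. Of the 18 fibre genes used for the scaling, 14 were lower in mdx as deposited, with a median change of -0.56, and 5 after quantile normalization, with a median of -0.11. With the hybridization controls 1 of the 18 was lower and 0 higher, with a median of 0.07. Array factors from the fibre genes were 0.926 to 1.52 in control and 0.704 to 1.01 in mdx.

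**Figure D3:**
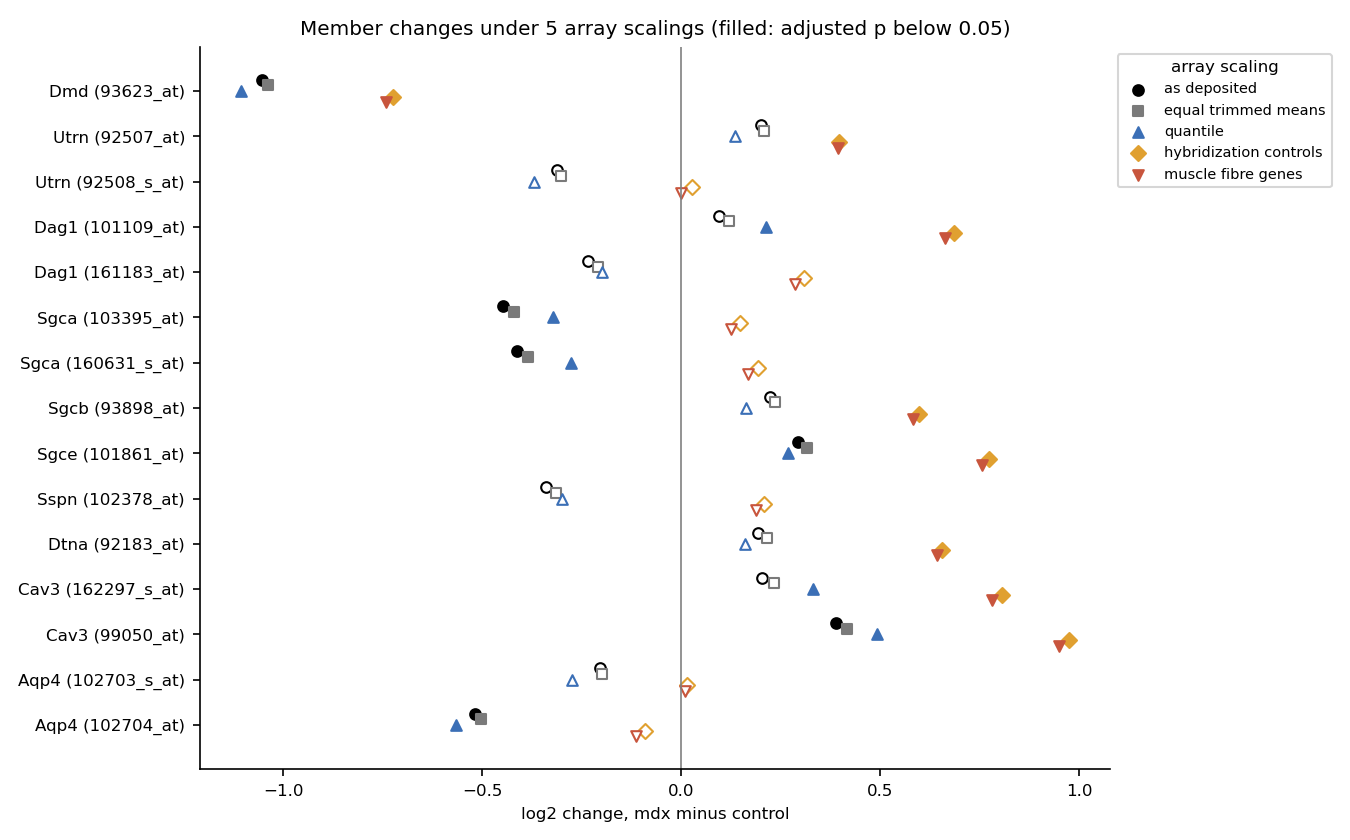
Log2 change, mdx minus control, of the 15 tested member probe sets under 5 scalings of the arrays, shown by marker and colour, filled where limma's adjusted p was below 0.05. Under the hybridization controls and the fibre genes every point moves to the right, and Dmd remains the only one called lower, at -0.72 and -0.74.

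Transcript levels of cell type markers differed between the control and mdx muscle pieces. Cells themselves were not counted. Of the 19 fibre markers with a probe set, only Myh2, the myosin heavy chain of fast oxidative fibres, lay under the noise level on all arrays. Their summed intensity as deposited was 408327 to 677715 in control and 313856 to 468595 in mdx, a fall that depends on the scaling, as above. Of 16 macrophage markers 15 rose, and none fell, with sums of 5231 to 9527 in control and 74130 to 98344 in mdx. Of 9 fibroblast markers 7 rose and 2 fell, with sums of 42036 to 52861 and 78819 to 92097. Among all 5767 genes tested, by the brightest tested probe set of each, 34.7% were called. Endothelial markers gave 2 rises and 2 falls of 11, smooth muscle and pericyte markers 1 and 3 of 8, Schwann cell markers 0 and 1 of 4, and adipocyte markers 2 and 1 of 6. Fewer fibres and less RNA per fibre cannot be told apart in such pieces, and the part of the other cells in the members' changes was not tested.

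Other genes of the complex were given by lists, with each gene counted by its brightest tested probe set. Of 15 further partners and relatives 7 had a probe set. Those of Sgcd, Sntb1, Sntb2, Dtnb and Nos1 did not pass the filter, and the 2 tested genes were not called. These were Grb2, a signalling adaptor that can bind dystroglycan (0.30, limma adjusted p = 0.104), and Mast2, a kinase that binds syntrophin (-0.36, limma adjusted p = 0.191). Of 5 tested genes of dystroglycan's sugar chains 1 was called. It was B3galnt2, an enzyme that builds the sugar chain by which dystroglycan binds laminin, which fell from 1373 ± 182 to 884 ± 134, a change of -0.47 (limma adjusted p = 0.00279) that was -0.017, uncalled, under scaling to the fibre genes and 0.00088 with the hybridization controls.

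On the matrix side of the membrane, of 15 tested genes of extracellular ligands and laminin receptors 11 rose, 0 fell and 4 did not pass (Lama5, Lamb2, Agrn and Itgb1), or 73.3% called beside 34.7% of all genes, with a median change of 0.55 against -0.04. Collagen VI, a microfibril around fibres, rose in its chains Col6a3 (1.90, from 1619 ± 136 to 7040 ± 494) and Col6a2 (1.42). Biglycan, Bgn, a proteoglycan that binds the sarcoglycans, rose by 1.74 with its brighter probe set, while the other did not pass, at 0.24. Chosen after their values were seen, the laminin chain Lama2 rose by 0.53 (limma adjusted p = 7.25e-05) and the laminin-binding integrin Itga7 by 0.55 (limma adjusted p = 0.00106). A further tested probe set of Itga7 was not called, at 0.10. These 2 genes make the laminin of the fibre's basement membrane and a receptor for it that works beside dystroglycan.

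Of 14 tested genes of costameres and cytoskeletal links 3 rose and 6 fell, with a median of -0.13. This was 64.3% called, beside 34.7% of all genes, of which 16.1% were higher and 18.6% lower. Costameres are the rib-like sites where the sarcomere is tied to the membrane. Csrp3, a LIM protein of the Z-disc, fell from 8617 ± 2543 to 1675 ± 210, a change of -2.09 (limma adjusted p = 1.22e-06). Plec, or plectin, the linker of intermediate filaments that also binds dystrophin and dystroglycan, fell by 1.20, from 4758 ± 1164 to 1818 ± 165 (limma adjusted p = 6.75e-05). Actg1, the cytoplasmic gamma-actin to which dystrophin binds at costameres and which many cell types make, rose by 0.70 (limma adjusted p = 0.000222). Of 5 tested genes of caveolae and membrane repair 1 rose and 2 fell, or 60% called. Cavin1, the coat protein of caveolae, fell by 0.47, and its relative Cavin3 rose by 0.47. The name of the Cavin3 probe set marks probes that can match more than 1 transcript. The muscle calpain Capn3 fell by 0.38 with its brightest probe set and by 0.32 and 0.31 with the others. With the hybridization controls and the fibre genes, Cavin1 (0.13 and 0.11) and Capn3 (0.20 and 0.18) turned sign and were not called, while Csrp3 and Plec were called lower under both. Under scaling to the fibre genes 6 of the 14 costamere genes were called higher and 2 lower, and with the hybridization controls 7 and 2. Of the 5 caveolar genes 2 were called higher and 0 lower under both. Over all 7612 tested probe sets, the fibre genes gave 3032 calls higher and the hybridization controls 3527.

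**Figure D4:**
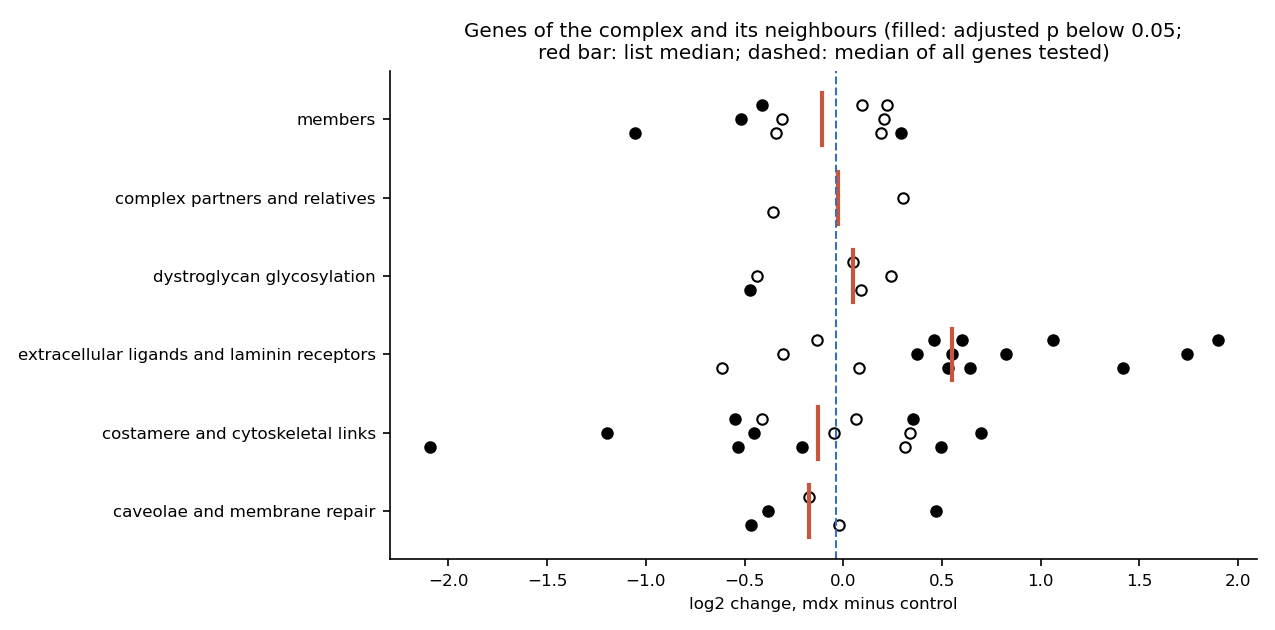
Log2 change, mdx minus control, of each tested gene in the member list and 5 lists around it, filled where limma's adjusted p was below 0.05, with a red bar at each list's median and a dashed line at -0.04, the median of all 5767 genes. The ligands and laminin receptors lie mostly to the right, while the members spread to both sides, with a median of -0.11.

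The genes closest to Dmd in their values over the 10 arrays were sought among 5766 others, by the mean absolute distance of log2 values after each gene's mean was taken off. They were Pex11a (distance 0.10), a membrane protein of peroxisomes, Ivd (0.11), an enzyme of leucine breakdown in mitochondria, and Egf (0.12), the precursor of epidermal growth factor. Next came Dbp (0.12), a transcription factor of the circadian clock's output, and Paip2b (0.13), which binds the poly(A)-binding protein and limits translation. All 5 were lower in mdx, with log2 changes from -0.83 for Paip2b to -1.19 for Dbp. Under the fibre gene scaling Ivd and Paip2b were not called, at -0.36 and -0.28, and the other 3 were called lower. Egf went from 1032 ± 167 to 275 ± 65.0 and Pex11a from 2487 ± 222 to 1099 ± 176 (SD, n = 5). The likeness rests on a gap of like size between the groups, as the measure takes in both.

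**Figure D5:**
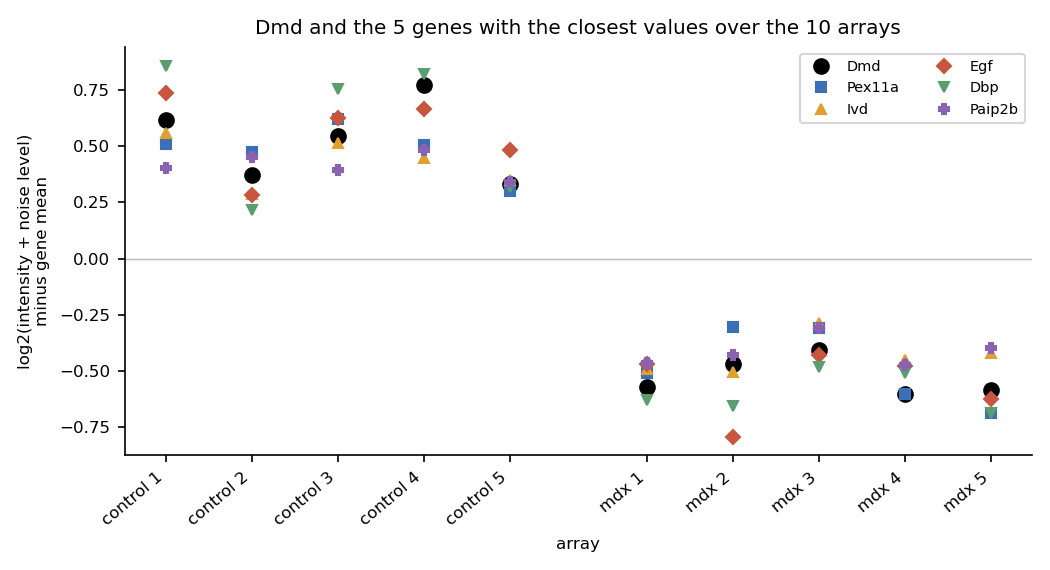
Values of log2(intensity + 372.4) minus each gene's mean on the 5 control and 5 mdx arrays, for Dmd (black) and the 5 genes nearest to it. All 6 genes lie above 0 on every control array and below 0 on every mdx array.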

How the data were processed

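Linear probe set intensities were deposited. How the authors corrected and scaled them is not given in the sources used here. From the values, 9 arrays share a trimmed mean (2% off each end) of 800.7 to 800.9 and mdx replicate 1 has 723.1, and 19.7% to 23.8% of values per array are below 0. Genes came from the platform annotation, which names 1 gene for 10833 of the 12422 probe sets that are no controls, several for 396 and none for 1193. Symbols looked up by gene number in the GRCm38.p6 table changed for 0.

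After values below 0 had been raised to 0, log2(intensity + 372.4) entered limma 3.58.1 under R 4.3.3 (lmFit and trended eBayes, two-sided) over 7612 probe sets, with Benjamini-Hochberg adjustment. The filter value 134.2 is the 40th percentile of all values. Within-array differences between probe sets of a member were compared by exact permutation over 252 splits, whose smallest p is 0.00794. On simulated data with 200 changed of 7612 probe sets, 44.8% of log2 changes of 0.5 and 94% of changes of 1 were recovered. Of the 169 calls there, 10 were false. In the real data 2554 probe sets were called, so the shares recovered there may differ. Named genes were every member, in each list the called genes of lowest p (up to 3), the tested partners and relatives, and the 5 nearest to Dmd. Lama2, Itga7, Acta2, Des, Myh11, Mylk, Myh2 and the genes given as not passing were named outside this rule, after their values were seen. The members, lists and tests were chosen with earlier results of these data known. The number of arrays limits the precision. Alternatives changed the noise level, filter, scaling, test and replicate block, and left out each array in turn. The noise level of 156.8 was added after the values had been seen.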

Additional observations from a re-analysis of the deposited data

Results flagged for a closer look

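In 2 of 32 groups of 5 values, 1 array stood apart from the other 4 by Dixon's criterion at its 95% level, and chance alone gives about 5% of groups. The first probe set of Sgca read 6942 on control replicate 1 and 5855 to 6095 on the other control arrays. Without that array its change was still called lower. Sgcb read 736 on control replicate 3 and 376 to 451 on the others, and was called neither with nor without it.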

How the results depend on the processing

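Dmd was called lower under every alternative run, with log2 changes of -0.72 to -1.46. Leaving out 1 array at a time gave -1.10 to -0.99 for Dmd, 6 to 8 called member probe sets against 6, and 2269 to 2483 calls over all probe sets against 2554. Scaling to the hybridization controls turned the sign of Utrn (brighter, 0.029), Dag1 (dimmer, 0.31), both Sgca probe sets (0.15 and 0.19), Sspn (0.21) and Aqp4 (dimmer, 0.015). Scaling to the fibre genes turned the same 6, to 0.00025, 0.29, 0.13, 0.17, 0.19 and 0.0090. Both scalings raise the mdx arrays relative to control on average, because the measured array factors were lower in mdx. Their means were 0.81 in mdx and 1.26 in control for the hybridization controls. For the fibre genes they were 0.82 and 1.26. Differences between probe sets of a member were called for 0 of 5 pairs, for 1 after quantile normalization, and for 0 to 1 when an array was left out. For Sgca this difference ranged from -0.03 to 0.10, and was -0.021, -0.0037 and -0.029 without control replicate 1, control replicate 2 and mdx replicate 1. With the replicate block 5 member probe sets and 2238 in all were called, and Dmd stayed at -1.05 (limma adjusted p = 0.00028). The labels do not say that the numbers pair the arrays. Deviations of same-numbered arrays correlated at -0.16 to 0.04, and 1 of 10 arrays correlated best with its own number. Low correlations cannot show whether arrays were paired in their handling.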

Other observations

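Within mdx, replicates 1 and 2 held the 2 lowest values for the brighter probe set of Utrn, for Sgcb and for the brighter probe set of Aqp4. That is 3 of the 15 tested member probe sets, and the same held for 991 of all 7612 tested (13%). The pattern was noticed in these values and was not tested.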
